A study of Mus musculus with 4 samples.

Results

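The genes described are 28 of the 31053 in the deposited count matrices, taken by symbol for their part in making cholesterol and fatty acids. They are 17 enzymes of the sterol pathway, from Hmgcs1 to Dhcr7, 4 regulators of the pathway (Srebf1, Srebf2, Insig1 and Scap), 6 enzymes of fatty acid synthesis (Fasn, Acaca, Acly, Scd1, Scd2 and Elovl6) and the sterol carrier Stard4. Cells were dissociated from the epiphyses of femur and tibia, where joint cartilage, growth plate, bone and marrow lie side by side. The control libraries are from wild-type mice and the mutant libraries from Sox9fl:fl AcanCreERT2/+ mice, each at postnatal days 13 and 19, with 1 library for each genotype and age. In the mutants both alleles of Sox9, the transcription factor that cartilage cells depend on, are floxed, and the tamoxifen-dependent recombinase CreERT2 is expressed from Acan, a gene of cartilage cells. The controls carry neither, so an effect of the Cre allele or its activation and one of Sox9 cannot be told apart. The tamoxifen schedule, the floxed exons and how many mice made a library were not given in the sources used here.

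Cholesterol is built from acetyl-CoA through mevalonate, isoprenoid diphosphates and squalene, which is closed into lanosterol and then trimmed and reduced to cholesterol. Fatty acids start from the same acetyl-CoA, which Acly makes from citrate and Acaca and Fasn turn into palmitate. Both routes are controlled by the SREBP factors, products of Srebf1 and Srebf2, which Scap escorts to the Golgi for activation when sterols are low and Insig1 holds back when sterols are plentiful. Chondrocytes sit in a matrix without blood vessels, and inherited defects of several of these enzymes disturb the skeleton.

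The promoters of the sterol enzymes are shown first because these genes are known to be switched together through short elements close to the start of transcription. RefSeq windows of 300 bases (250 before and 50 after the start, build GRCm38.p6) were found for 22 of the 28 genes. Fdft1, Scd2, Sqle, Stard4, Scd1 and Fdps had none. The 4 windows printed are those of Hmgcs1, which held the sterol regulatory element searched for, and of Mvd, Msmo1 and Cyp51, which fell in the mutants. They run 5′ to 3′ on the strand of the gene, and capitals mark CCAAT or its reverse complement ATTGG, the box bound by NF-Y, and a match to TCACNCCAC, the element searched for as a binding site of SREBP.
Hmgcs1 (chr13:119690101-119690400, plus strand): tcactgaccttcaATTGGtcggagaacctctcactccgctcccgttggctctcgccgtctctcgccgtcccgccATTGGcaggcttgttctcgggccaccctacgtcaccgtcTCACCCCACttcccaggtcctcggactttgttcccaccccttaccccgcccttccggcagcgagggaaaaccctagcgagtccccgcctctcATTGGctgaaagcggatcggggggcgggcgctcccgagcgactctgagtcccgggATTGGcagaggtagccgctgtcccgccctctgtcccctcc
Mvd (chr8:122443373-122443672, minus strand): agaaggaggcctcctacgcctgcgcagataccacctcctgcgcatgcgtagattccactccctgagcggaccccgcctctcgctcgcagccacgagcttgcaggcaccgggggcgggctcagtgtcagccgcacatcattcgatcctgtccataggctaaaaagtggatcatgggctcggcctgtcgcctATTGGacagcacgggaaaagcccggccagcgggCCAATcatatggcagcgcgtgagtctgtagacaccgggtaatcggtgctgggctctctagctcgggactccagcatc
Msmo1 (chr8:64733529-64733828, minus strand): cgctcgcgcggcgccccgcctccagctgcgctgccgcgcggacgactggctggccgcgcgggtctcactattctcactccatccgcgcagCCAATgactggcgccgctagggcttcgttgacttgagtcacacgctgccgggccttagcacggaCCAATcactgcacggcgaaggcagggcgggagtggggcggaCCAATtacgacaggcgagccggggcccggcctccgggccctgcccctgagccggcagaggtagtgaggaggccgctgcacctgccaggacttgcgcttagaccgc
Cyp51 (chr5:4104648-4104947, minus strand): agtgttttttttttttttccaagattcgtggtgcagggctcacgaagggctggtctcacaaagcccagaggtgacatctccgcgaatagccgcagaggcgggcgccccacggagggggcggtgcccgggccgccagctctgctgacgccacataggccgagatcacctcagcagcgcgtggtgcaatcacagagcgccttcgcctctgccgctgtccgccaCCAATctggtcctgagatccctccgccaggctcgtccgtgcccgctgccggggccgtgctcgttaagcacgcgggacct
CCAAT, on either strand, was found in at least 1 window of 19 of the 22 genes, 86.4%, against 41.1% of the 27025 genes with a window. TCACNCCAC was found in 1 of the 22 genes, Hmgcs1, and in 1.44% of all genes. The GC-box core GGGCGG was found in 18 of the 22 genes and in 38.2% of all, and CACGTG in 5 of the 22 (Dhcr7, Hsd17b7, Insig1, Sc5d and Scap) and in 8.09% of all. These are matches of letters on both strands, and some overlap, as the CCAAT and ATTGG matches in the Fasn window do. Hmgcs1 holds 4 CCAAT matches, Msmo1 3, Mvd 2 and Cyp51 1.

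Depth was 70507107 to 76080803 UMIs, counted transcript molecules, per library. After filters 6186 to 9629 cells per library were kept, and pairs of libraries shared 10 to 35 passing barcodes. Of 30 clusters 7 were named chondrocyte-like from cartilage markers, with 4166 control and 2722 mutant cells at day 13, and 1036 and 2293 at day 19. The summed level of the chondrocyte markers was 51234 to 126384 CPM (UMIs scaled to a total of 1000000) in these cells and at most 26331 CPM in any library of another class. Values below are CPM of all UMIs of a class in a library, and sets of 4 values are in the order control and mutant at day 13, then control and mutant at day 19. Sox9 stood at 359, 191, 457 and 175 CPM and Acan at 4365, 1111, 4382 and 1371 CPM in chondrocyte-like cells, both lower in either mutant library than in either control library. The tags read the 3′ end of transcripts, and since the floxed exons are not known the Sox9 level checks neither labels nor deletion. For the X-linked members Ebp and Nsdhl, Xist stood at 0.129, 0.161, 0.0526 and 0.249 CPM and the Y-linked Ddx3y at 93.4, 92.3, 88.7 and 92.9 CPM, so neither sex-linked gene set the libraries apart.

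The class was not made of the same clusters in both genotypes. Most control chondrocyte-like cells lay in clusters 1 (Frzb and Matn1 among its leading genes), 3 (Sfrp5 and Pcp4) and 8 (Il17b and Ppa1), which held 35.5, 9.59, 21.2 and 12.2%, 27.9, 2.09, 20.4 and 6.15%, and 21.9, 0.625, 25.9 and 0.131% of the class in the 4 libraries. Cluster 6 (led by Cryba2 and Mmp13) held 1.56, 63.7, 1.93 and 55.04%, most of the class in both mutant libraries. Clusters 5 (Myoc and Pi15), with 3, 809, 7 and 824 cells, and 13 (Mepe and Chad), with 192, 322, 60 and 208 cells, hold chondrocyte markers (21 and 23 of 27 stood 3-fold over the blood clusters) but were kept out of the class by naming rules set after the data were seen. Such a rule also let clusters 4, 6 and 21 into the class. In cluster 6 17 of 27 chondrocyte markers stood 3-fold over the blood clusters, and they summed to 32360 and 34534 CPM in the mutants. Cluster 5 had a fibroblast marker, Col14a1, and no chondrocyte marker among its 10 leading genes. Cluster 13 led with osteoblast markers such as Mepe and Ibsp and counted as mixed. Markers of other cell types moved with genotype inside the class. The 12 osteoblast markers summed to 1695 and 1376 CPM in the controls and 9053 and 6472 CPM in the mutants at days 13 and 19, with 10 of 12 higher in the mutant at both ages. The 12 fibroblast markers summed to 1730 and 1358 CPM in the controls and 5136 and 4131 CPM in the mutants, with 11 of 12 higher at both ages. The 7 monocyte markers summed to 878 and 897 CPM in the controls and 2208 and 2673 CPM in the mutants, with 4 of 7 higher at both ages. That list includes F13a1, a leading gene of the chondrocyte-like cluster 4, so its sum does not read monocyte RNA alone. In cluster 4 at day 13 it summed to 4429 CPM in the control and 6975 CPM in the mutant. The macrophage markers summed there to 10.6 and 4.38 CPM. In the class as a whole the 6 macrophage markers summed to 6.79 and 5.16 CPM in the controls and 12.4 and 12.1 CPM in the mutants. Of these 4 were higher in the mutant at both ages and 1 was lower. The 11 neutrophil markers summed to 57.0 and 199 CPM in the controls and 136 and 529 CPM in the mutants, with 11 of 11 higher at both ages. The 12 erythroid markers went the other way, at 2652 and 9854 CPM in the controls and 1299 and 4832 CPM in the mutants, with 8 of 12 lower at both ages. Cidec (adipocyte), Myod1 (muscle), and Fcer1a and Ms4a2 (basophil and mast cell) had no UMI in the class. The part of these shifts in the results below was not tested, except where values within single clusters are given.

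The sterol enzymes stood higher in chondrocyte-like cells than in the other named classes. Their 17 levels summed to 1803, 1315, 1466 and 1317 CPM in chondrocyte-like cells, against 866 and 635 CPM in the mutant libraries of osteoblast-like cells, 725 and 562 CPM in the day 19 libraries of plasmacytoid dendritic-like cells and at most 490 CPM in any library of the 9 other classes with a library of 50 cells or more. The lowest chondrocyte-like library was thus above every library of every other class. Erythroid-like cells had the lowest median, 159 CPM, with a range of 107 to 257 CPM that overlapped those of B cell-like, macrophage-like and neutrophil-like cells. By the median of libraries 19 of the 28 genes were highest in chondrocyte-like cells among 12 classes, and for 14 of them the lowest chondrocyte-like library was above every library of the next class. Cyp51, the lanosterol demethylase, for example, ranged from 183 to 256 CPM in chondrocyte-like cells and from 79.99 to 113 CPM in osteoblast-like cells, the next class. Scap and Ebp were exceptions, and both were below the highest class in every library. Scap was at 12.4 to 16.5 CPM against 25.996 to 53.1 CPM in plasmacytoid dendritic-like cells, and Ebp, the sterol isomerase, at 54.6 to 66.9 CPM against 91.9 to 120.2 CPM in monocyte-like cells. The 6 fatty acid enzymes summed to 526 to 714 CPM in chondrocyte-like cells and 420 to 487 CPM in osteoblast-like cells. Cartilage RNA was also read in other classes: the chondrocyte markers summed to 1497 to 11765 CPM in the blood and endothelial classes, highest in the day 13 control in most of them, and its share in the levels of the sterol enzymes there was not tested.

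**Figure D1:**
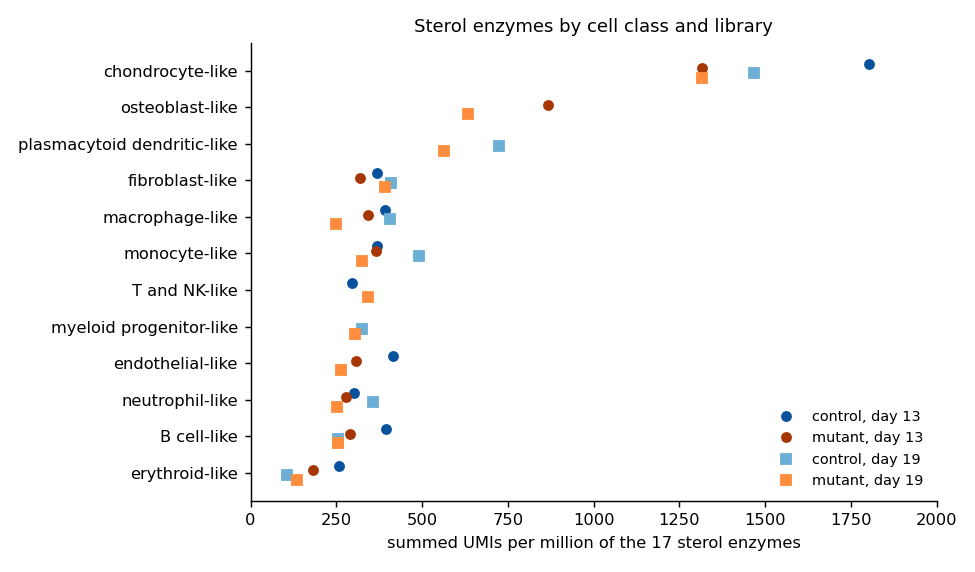
Summed level of the 17 sterol enzymes in each named cell class, in CPM on a linear axis; each point is 1 library with 50 or more cells of the class. The 4 chondrocyte-like libraries lie at 1315 to 1803, right of every other point, and the osteoblast-like and plasmacytoid dendritic-like libraries at 562 to 866 come next.

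The comparison of mutant and control asks which genes differ in cartilage cells when Sox9 is targeted. In chondrocyte-like cells 16 of the 28 genes fell in the mutants and none rose, in an edgeR quasi-likelihood fit over both ages with an adjusted p under 0.05. Of all 14712 genes tested 11.4% were called lower and 13.2% higher. Without TMM 9 of the 28 fell, with a median of -0.32, while 5.94% of all genes were called lower and 20.3% higher and the median of all genes moved to 0.22. Without the cycling cluster 10 fell (1593 of all 14502 genes lower, 1811 higher), with no filter on low counts 10 (4.89% of all genes lower, 6.08% higher) and with genotype alone in the model 7 (7.46% and 8.77%), while the median log2 change of the 28 was -0.49, -0.53 and -0.55. With TMM the median log2 change was -0.53 over the 28 genes, all of which passed the filter on low counts, and 0.01 over all genes tested. No gene of the 28 was higher at an unadjusted p under 0.05, and DESeq2 called 14 lower and 0 higher (6.99% and 7.47% of all genes). On plain CPM, without the scaling between libraries by TMM that the fit uses, the sterol enzymes together were 1.37-fold lower in the mutant at day 13 and 1.11-fold lower at day 19, while the median log2 ratio of all tested genes was 0.29 and 0.16. Both mutant libraries were below both control libraries in plain CPM for 15 of the 28 genes (16.4% of all tested genes) and above them for 3, Mvk, Srebf2 and Scap (48.0%). With 1 library per group the fit has 1 residual degree of freedom, so its p-values rest on how far the genotype difference repeats at the other age and on dispersion shared between genes, and do not measure the spread between mice. Intervals at a single age are exact 95% intervals for counting error only.

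**Figure D2:**
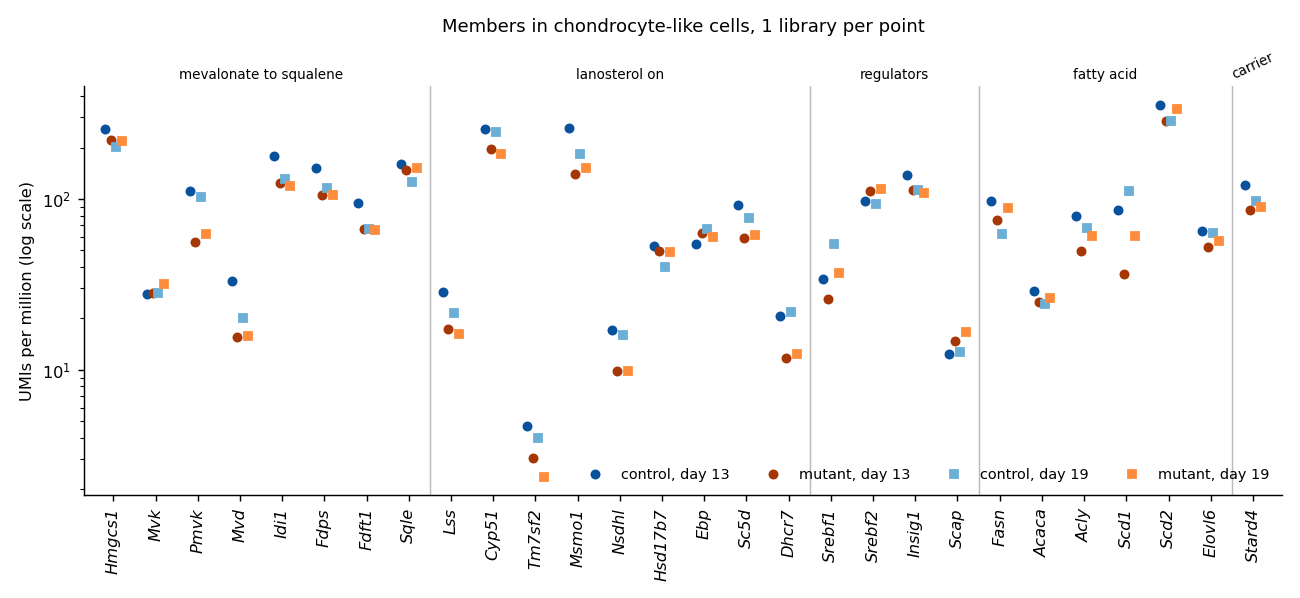
Level of each of the 28 genes in chondrocyte-like cells, in CPM on a log axis; each point is 1 library. Blue points (control) lie above orange points (mutant) at both ages for genes such as Pmvk, Dhcr7 and Scd1, and the colours mix for Sqle, Hsd17b7, Fasn and Scd2.

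In the first section of the pathway, from Hmgcs1 to Sqle, 4 of 8 genes fell. Pmvk (chromosome 3, 89454541 to 89469013, plus strand, GRCm38), the kinase that phosphorylates phosphomevalonate, stood at 111, 55.9, 102 and 62.7 CPM. Both mutant libraries were well below both controls, 1.98-fold lower at day 13 and 1.63-fold lower at day 19, with a log2 change of -1.06 ± 0.137 (SE; edgeR adjusted p = 0.000448), n = 4 libraries. Mvd (chromosome 8, 122433601 to 122443422, minus strand), which decarboxylates mevalonate diphosphate to the isoprenoid unit, stood at 33.3, 15.5, 20.04 and 15.8 CPM. Its day 13 control was the highest library, and its log2 change was -0.95 ± 0.201 (SE; edgeR adjusted p = 0.00741). Idi1, the isomerase of that unit, stood at 179, 124, 131 and 119 CPM and had a log2 change of -0.54 ± 0.147 (SE; edgeR adjusted p = 0.0232). Fdps, which joins the units into farnesyl diphosphate, stood at 153, 106, 116 and 105 CPM and had a log2 change of -0.55 ± 0.144 (SE; edgeR adjusted p = 0.0212). For these last 3 genes the groups did not overlap, but the day 19 libraries were closer to each other than those of day 13.

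The other 4 genes of this section did not pass. Hmgcs1 (chromosome 13, 119690379 to 119708260, plus strand), which makes HMG-CoA, stood at 256, 220.4, 202 and 218 CPM, below control at day 13 and above it at day 19, so the groups overlapped, with a log2 change of -0.26 ± 0.143 (SE; edgeR adjusted p = 0.215). Sqle, which oxidises squalene, stood at 160.2, 149, 125 and 152 CPM, with the same crossing (log2 -0.13, and 0.084 without TMM). Fdft1, the squalene synthase, stood at 94.5, 66.6, 66.3 and 65.9 CPM, and only the day 13 control stood apart, with a log2 change of -0.47 ± 0.156 (SE; edgeR adjusted p = 0.053). Mvk, the mevalonate kinase, stood at 27.8, 28.3, 28.1 and 31.6 CPM, the mutants at or just above the controls (log2 -0.11, and 0.098 without TMM). The summed level of the 8 genes was 1.33-fold lower in the mutant at day 13 and 1.03-fold lower at day 19.

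From lanosterol on, 7 of 9 genes fell. Dhcr7 (chromosome 7, 143823145 to 143848410, plus strand), the reductase of the last step to cholesterol, stood at 20.8, 11.7, 21.7 and 12.4 CPM. Its mutant libraries were about equally low at both ages, 1.77-fold lower at day 13 and 1.75-fold lower at day 19, and its log2 change was -1.03 ± 0.147 (SE; edgeR adjusted p = 0.000823). Nsdhl (chromosome X, 72918557 to 72958514, plus strand), a dehydrogenase that removes methyl groups from the ring together with Msmo1 and Hsd17b7, stood at 17.1, 9.87, 15.99 and 9.83 CPM, again with no overlap, with a log2 change of -0.96 ± 0.158 (SE; edgeR adjusted p = 0.00181). Msmo1 (chromosome 8, 64718139 to 64733792, minus strand), the oxidase of the same step, stood at 262, 139.5, 183 and 152 CPM. Its day 13 control was far above the other 3 libraries, and the log2 change was -0.80 ± 0.176 (SE; edgeR adjusted p = 0.00903). Cyp51 (chromosome 5, 4081145 to 4104746, minus strand), the lanosterol demethylase, stood at 256, 197, 246 and 183 CPM and was lower to a like degree at both ages, 1.2999-fold lower at day 13 and 1.35-fold lower at day 19, with a log2 change of -0.61 ± 0.123 (SE; edgeR adjusted p = 0.00556).

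The remaining genes of this section had lower counts or smaller changes. Lss, the cyclase that makes lanosterol, stood at 28.4, 17.4, 21.5 and 16.1 CPM, with a log2 change of -0.78 ± 0.154 (SE; edgeR adjusted p = 0.00508), and Sc5d, a sterol desaturase, at 91.7, 59.1, 77.02 and 61.8 CPM, with a log2 change of -0.69 ± 0.139 (SE; edgeR adjusted p = 0.00578). Tm7sf2, a sterol reductase, was read from 57 to 255 UMIs per library and stood at 4.703, 3.05, 3.998 and 2.36 CPM, with a log2 change of -0.90 ± 0.247 (SE; edgeR adjusted p = 0.0251). For all 3 both mutant libraries were below both controls. The remaining pair did not pass, and its groups overlapped. Hsd17b7 stood at 53.3, 49.5, 40.2 and 48.7 CPM (log2 -0.13) and Ebp at 54.6, 62.9, 66.9 and 60.2 CPM (log2 -0.18), and without TMM these estimates were 0.081 and 0.027. The summed level of the 9 genes was 1.43-fold lower in the mutant at day 13 and 1.24-fold lower at day 19. Annotation overlaps bear on some of these counts: 10 of the 28 genes overlap another listed gene, among them Cyp51 with Akap9, Fdft1 with Ctsb and Srebf1 with Rai1 on the opposite strand and Tm7sf2 with Vps51 on the same strand, and how the counting treated them was not given in the sources used here.

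**Figure D3:**
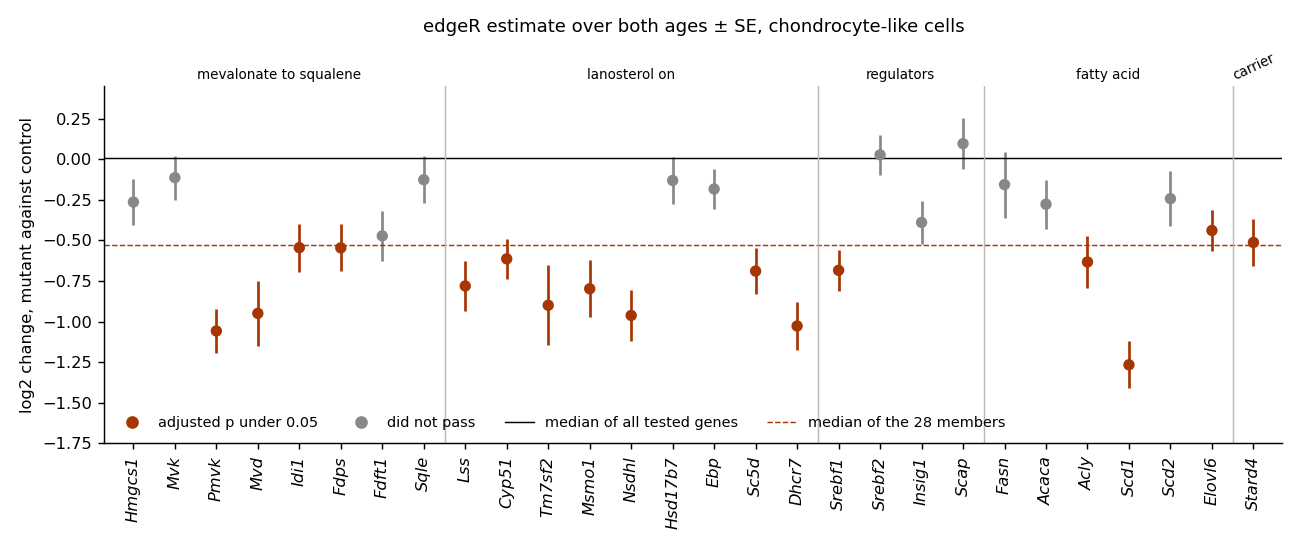
edgeR log2 change of mutant against control in chondrocyte-like cells for each of the 28 genes, fitted over both ages with TMM scaling; bars are 1 SE and filled orange points passed an adjusted p of 0.05. The 16 that passed all lie below 0, their median with the other 12 is -0.53, and of the grey points 7 (Mvk, Sqle, Hsd17b7, Ebp, Fasn, Srebf2 and Scap) lie above 0 without TMM.

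Of the 4 regulators 1 fell, Srebf1. Srebf1 (chromosome 11, 60199089 to 60222581, minus strand), whose product drives mainly the fatty acid enzymes, stood at 33.8, 25.9, 54.6 and 36.9 CPM. It was lower in the mutant at either age and higher at day 19 than at day 13 in either genotype, so the groups overlapped across ages, with a log2 change of -0.68 ± 0.125 (SE; edgeR adjusted p = 0.00332). Srebf2, whose product drives mainly the sterol enzymes, stood at 97.5, 111, 93.02 and 114 CPM, somewhat higher in the mutants on this scale, and its TMM-scaled estimate was 0.03 ± 0.122 (SE; edgeR adjusted p = 0.903). Insig1 stood at 139, 114, 113 and 108 CPM, with a log2 change of -0.39 ± 0.131 (SE; edgeR adjusted p = 0.0563) and Scap at 12.4, 14.7, 12.7 and 16.5 CPM (log2 0.10). The plain-CPM sums of the 4 regulators, 265 to 283 CPM, differed less between libraries than those of the enzymes.

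Of the 6 fatty acid enzymes 3 fell. On plain CPM the 6 together stood at 714, 526, 613 and 630 CPM, lower in the mutant at day 13 and slightly higher at day 19. Scd1 (chromosome 19, 44394455 to 44407879, minus strand), a desaturase that makes oleate, stood at 86.2, 36.4, 111 and 60.7 CPM. Both mutants were below both controls, 2.37-fold lower at day 13 and 1.83-fold lower at day 19, with a log2 change of -1.27 ± 0.146 (SE; edgeR adjusted p = 0.000224), the largest fall of the 28 genes in this fit. Acly, which makes acetyl-CoA from citrate, stood at 79.7, 49.6, 67.2 and 60.4 CPM, with a log2 change of -0.63 ± 0.161 (SE; edgeR adjusted p = 0.018), and Elovl6, which lengthens palmitate, at 65.1, 52.5, 63.1 and 57.1 CPM, with a log2 change of -0.44 ± 0.129 (SE; edgeR adjusted p = 0.0328). Fasn, the fatty acid synthase, crossed: it stood at 97.3, 74.9, 62.3 and 88.03 CPM, with log2 ratios of -0.38 at day 13 (-0.45 to -0.31) and 0.50 at day 19 (0.40 to 0.60). Scd2, a paralog of Scd1, crossed in the same manner at 357, 288, 285 and 338 CPM, and Acaca, which makes malonyl-CoA, stood at 29.1, 24.9, 24.4 and 26.2 CPM. These 3 did not pass (edgeR adjusted p = 0.625, 0.336 and 0.216). Reads that could come from either Scd1 or Scd2 make both levels uncertain to that extent. Stard4, which carries cholesterol between membranes, stood at 121, 86.6, 97.6 and 89.98 CPM and fell, with a log2 change of -0.51 ± 0.142 (SE; edgeR adjusted p = 0.026).

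Neighbouring pathways were read from 4 further lists in the same fit, whose genes were picked with earlier results of these data known. That fit called 11.4% of all genes lower and 13.2% higher. The 2 of 19 called higher and the 1 of 14 called lower below did not exceed those shares. Whether the other counts differ from them was not tested. Of 19 other genes of sterol and fatty acid synthesis 6 fell and 2 rose, with a median log2 change of -0.20. Fads2, a desaturase of polyunsaturated fatty acids, stood at 10.1, 4.31, 20.6 and 8.5004 CPM and fell, with a log2 change of -1.46 ± 0.167 (SE; edgeR adjusted p = 0.000218). Acat2, which makes acetoacetyl-CoA for the sterol route, stood at 36.2, 14.6, 29.6 and 16.7 CPM and fell, with a log2 change of -1.29 ± 0.169 (SE; edgeR adjusted p = 0.0005). Acacb, the mitochondrial form of the enzyme that makes malonyl-CoA, stood at 0.609, 2.03, 0.526 and 1.58 CPM and rose, with a log2 change of 1.45 ± 0.366 (SE; edgeR adjusted p = 0.0177). Of 9 genes of sterol efflux, storage and trafficking 3 rose and the other 6 did not pass, with a median of 0.29. They were Nr1h3, which encodes the sterol sensor LXR alpha and was read at 0.314, 2.48, 0.894 and 3.15 CPM, with a log2 change of 2.19 ± 0.381 (SE; edgeR adjusted p = 0.00247), the cholesterol exporter Abca1, with a log2 change of 0.82 ± 0.222 (SE; edgeR adjusted p = 0.0238) and Mylip, with a log2 change of 0.57 ± 0.145 (SE; edgeR adjusted p = 0.0176). Of 13 genes of fatty acid uptake and oxidation 3 rose and 10 did not pass, with a median of 0.31. These were the fatty acid binding proteins Fabp4, at 4.94, 65.1, 4.63 and 62.7 CPM, and Fabp5, at 75.5, 371, 74.7 and 258 CPM, and the mitochondrial carnitine transferase Cpt1a, at 2.12, 6.69, 1.79 and 6.05 CPM (log2 3.52, 1.84 and 1.48). Fabp4 is also a gene of adipocytes and endothelial cells, whose marker lists summed to 1.53 to 7.84 and 15.7 to 22.4 CPM in the class. Their part in its rise was not tested. Of 14 cell cycle genes Mcm6 fell, with a log2 change of -0.89 ± 0.149 (SE; edgeR adjusted p = 0.00196) and 13 did not pass. The 14 together stood at 383, 599, 724 and 515 CPM, higher in the mutant at day 13 and lower at day 19.

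Between days 13 and 19 no gene of the 28 passed in chondrocyte-like cells as a whole. The same edgeR fit called 0.421% of all genes higher and 0.0612% lower at day 19. Srebf1 and Scd1, 2 of the 28, were higher at an unadjusted p under 0.05 and none lower, and DESeq2 called 0 (0.479% of all genes higher, 0.103% lower). Srebf1 had the largest age estimate, log2 0.55 ± 0.125 (SE; edgeR adjusted p = 0.103), followed by Scd1 with 0.49 ± 0.144 (SE; edgeR adjusted p = 0.217). In the controls alone 22 of 28 genes were lower at day 19 on plain CPM, with a median log2 ratio of -0.25 (0.11 over all tested genes). In the mutants alone 11 of 28 were lower, with a median of 0.05 (-0.02 over all tested genes). The sterol enzyme sum was 1803 CPM at day 13 and 1466 CPM at day 19 in the controls, and 1315 and 1317 CPM in the mutants, so the gap in plain CPM was larger at day 13. Whether the ages differ in it was not tested, since 1 library per group leaves no degree of freedom for it.

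Within single clusters the genotype difference was uneven. The 5 clusters with chondrocyte markers and 50 or more cells in every library were each fitted alone with the same edgeR model. In cluster 21, led by cell cycle genes such as Cdk1 and Prc1 (206, 158, 114 and 113 cells), 19 of 27 tested genes fell and none rose, also at an unadjusted p under 0.05, against 8.42% of all genes lower and 10.1% higher. Its sterol enzymes summed to 2506, 1405, 1949 and 1416 CPM, the controls well above the mutants at both ages. In cluster 0, led by Prg4 and Cilp of the articular surface, none of 27 fell (4.17% of all genes lower), 4 were lower at an unadjusted p under 0.05, and Scd2 rose with a log2 change of 0.54 ± 0.158 (SE; edgeR adjusted p = 0.00913), where 5.09% of all genes were higher. In cluster 1 none of 28 passed (1.74% of all genes lower, 2.39% higher), with 5 lower and 0 higher at an unadjusted p under 0.05. In cluster 3, which has 57 cells in the day 13 mutant, Idi1, Cyp51 and Msmo1 fell (3.68% of all genes lower) and Scd1 rose (3.53% of all genes higher). In the unnamed cluster 13 Mvd, Fdps, Msmo1, Nsdhl, Dhcr7 and Scd1 fell, 6 of 28 (4.03% of all genes lower), and none rose at an unadjusted p under 0.05 (4.6% of all genes higher). DESeq2 was not run within clusters. Errors and p-values, also those of age, rested wholly in cluster 0 and almost wholly in cluster 3 on dispersion shared between genes.

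Between the ages 3 genes passed within single clusters. Msmo1 was higher at day 19 in cluster 0, at 118, 88.7, 150.03 and 150.9 CPM, with a log2 change of 0.54 ± 0.157 (SE; edgeR adjusted p = 0.0208). In cluster 3 Mvd was lower at day 19, at 25.97, 26.8, 13.1 and 9.55 CPM, with a log2 change of -1.22 ± 0.318 (SE; edgeR adjusted p = 0.0146). Fdps was lower there too, at 107, 107, 59.3 and 88.3 CPM, with a log2 change of -0.68 ± 0.187 (SE; edgeR adjusted p = 0.0252). For each of the 3 both libraries of day 19 lay on one side of both libraries of day 13. Of all genes 2.31% were higher and 1.16% lower at day 19 in cluster 0, and 1.35% and 0.996% in cluster 3. In clusters 1, 13 and 21 none of the 28 passed in edgeR, with 11, 5 and 3 lower and 1, 0 and 2 higher at an unadjusted p under 0.05. Of all genes 0.733%, 0.472% and 0.213% were higher there and 0.265%, 0.195% and 0.0582% lower.

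The fall of Scd1 in the class as a whole was seen in cluster 21, where it stood at 98.2, 26.1, 135 and 32.3 CPM, with a log2 change of -2.15 ± 0.171 (SE; edgeR adjusted p = 3.54e-06), and not in cluster 3, where it stood at 32.05, 68.4, 44.5 and 98.5 CPM, with a log2 change of 1.02 ± 0.203 (SE; edgeR adjusted p = 0.000104). In cluster 3 both mutant libraries were above both controls, the reverse of cluster 21. Pmvk in cluster 21 stood at 195, 61.5, 150.3 and 60.3 CPM, with a log2 change of -1.67 ± 0.167 (SE; edgeR adjusted p = 2.24e-05), Mvd at 55.8, 14.3, 34.99 and 12.2 CPM, with a log2 change of -1.96 ± 0.235 (SE; edgeR adjusted p = 0.000102) and Lss at 53.4, 15.02, 30.7 and 15.2 CPM, with a log2 change of -1.67 ± 0.254 (SE; edgeR adjusted p = 0.000643). In cluster 0 the estimates of these 3 genes were -0.10, 0.13 and -0.11, in cluster 1 -0.09, -0.65 and 0.22, and in cluster 3 -0.28, -0.27 and 0.11, none of which passed. Msmo1, by contrast, had estimates below 0 in each of these clusters, -0.21 in cluster 0, -0.55 in cluster 1, -0.65 in cluster 3 and -1.09 in cluster 21.

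**Figure D4:**
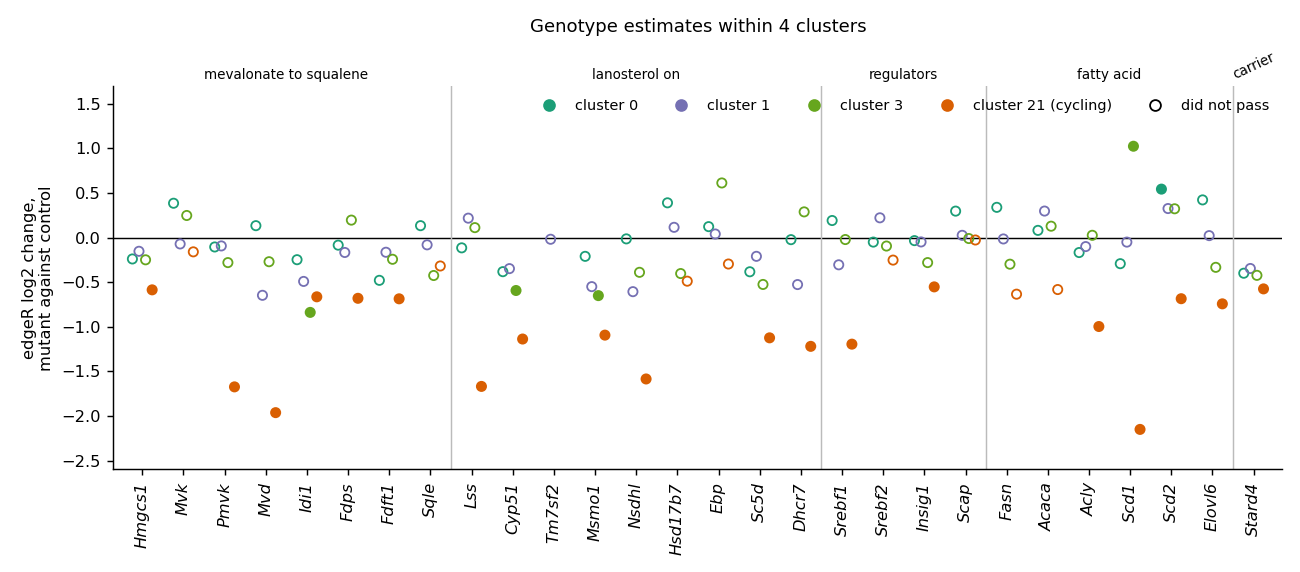
edgeR log2 change of mutant against control for each of the 28 genes within 4 clusters that all libraries share; filled points passed an adjusted p of 0.05 within the cluster and a missing point failed the filter on low counts. In the cycling cluster 21 19 genes passed, all below 0, while 16 of 27 lie below 0 in cluster 0, 20 of 28 in cluster 1 and 18 of 27 in cluster 3, where Idi1, Cyp51 and Msmo1 passed below 0 and Scd1 above it at 1.02.

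The difference between the cycling cluster and clusters 0, 1 and 3 pooled was tested directly, a test added after the data were seen. The genotype effect was more negative in the cycling cluster for 12 of the 28 genes (3.79% of all genes) and more positive for 0 (6.05% of all genes), with 18 more negative and 0 more positive at an unadjusted p under 0.05 in edgeR. The median difference was -0.45 over the 28 and 0.03 over all genes. The 12 were Pmvk, Mvd, Lss, Cyp51, Nsdhl, Ebp, Dhcr7, Srebf1, Acaca, Acly, Scd1 and Scd2. The difference was -2.15 ± 0.190 (SE) for Scd1, -1.39 ± 0.258 for Lss, -1.21 ± 0.269 for Mvd and -1.11 ± 0.169 for Pmvk. The pooled clusters are a different mix in each genotype, with 291, 1480 and 1161 control and 405, 261 and 57 mutant cells of clusters 0, 1 and 3 at day 13 and 182, 220 and 211 control and 333, 279 and 141 mutant cells at day 19, and the part of that mix in these differences was not tested. In this fit the spread was set by dispersion common to all genes, with no estimate for the single gene. Cells of the cycling cluster differed between genotypes in more than these genes: the 12 osteoblast markers summed there to 851 and 689 CPM in the controls and 6520 and 4148 CPM in the mutants, and the 12 fibroblast markers to 684 and 565 CPM and 4266 and 3241 CPM. The 14 cell cycle genes summed to 3337, 4639, 3174 and 4333 CPM, higher in the mutants.

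**Figure D5:**
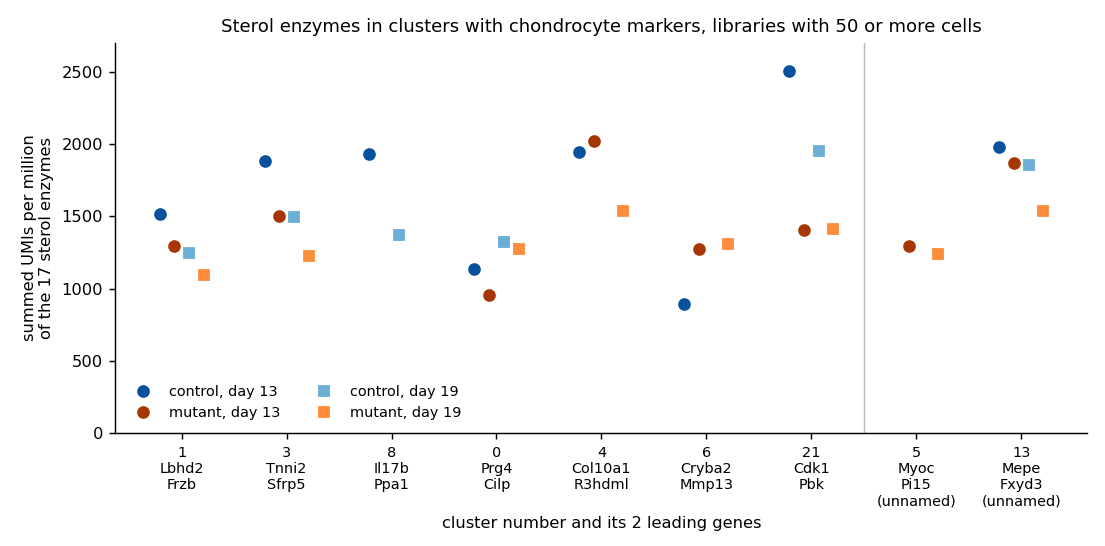
Summed level of the 17 sterol enzymes in each cluster with chondrocyte markers, in CPM on a linear axis from 0; each point is 1 library with 50 or more cells in the cluster. In the cycling cluster 21 the controls at 2506 and 1949 stand above the mutants at 1405 and 1416. In cluster 6, which holds most mutant cells of the class, the mutants at 1276 and 1308 stand above the day 13 control at 898, a point of 65 cells.

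Cluster 6, which holds most mutant cells of the class, had sterol enzyme sums of 1276 and 1308 CPM in the mutants and 898 CPM in the 65 cells of the day 13 control. Those 65 cells differed from the mutant cells in other genes too. Their 14 cell cycle genes summed to 574 CPM, against 212 and 190 CPM in the mutants, and their marrow stroma markers to 183 CPM, against 46.5 and 49.1 CPM. Cluster 8, which holds nearly none of the mutant cells, had 1929 and 1372 CPM in the controls at days 13 and 19. In cluster 0, the Prg4 cluster, the sums were 1136, 959.6, 1324 and 1277 CPM, in cluster 1 1516, 1296, 1244 and 1094 CPM and in cluster 3 1882, 1503, 1495 and 1226 CPM, with either mutant below the control of its age in all 3. Cluster 4, led by the hypertrophic marker Col10a1, had 1948 CPM in the day 13 control and 2018 CPM in the day 13 mutant. Within the day 13 control library alone the sums ranged from 898 CPM in cluster 6 to 2506 CPM in cluster 21. The 6 fatty acid enzymes summed to 352, 380, 312 and 459 CPM in cluster 0 and 477, 487, 379 and 504 CPM in cluster 1. In cluster 3 they summed to 625, 604, 471 and 688 CPM. The mutant was thus above the control of its age in clusters 0 and 1, and in cluster 3 at day 19 only. In cluster 21 they summed to 1030, 554, 858 and 641 CPM, lower in the mutants.

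Outside the chondrocyte-like cells few of the genes passed, at a lower depth. The B cell-like cells of the day 13 control, for example, held 1251545 UMIs and its chondrocyte-like cells 54215810. In B cell-like, erythroid-like, fibroblast-like, macrophage-like, monocyte-like and neutrophil-like cells, and in blood-like cells pooled, edgeR called none of the 21 to 28 tested genes lower. At an unadjusted p under 0.05, 2, 2, 0, 3, 3, 4 and 0 were lower and 3, 0, 0, 0, 0, 0 and 2 higher in that order. Of all genes 0.792%, 1.05%, 0.0191%, 0.446%, 0.291%, 1.25% and 0.0831% were called lower, and 1.63%, 1.42%, 0.144%, 0.719%, 0.597%, 3.23% and 0.151% higher. Among the genes that passed the filter on low counts, 19 of 21 had estimates below 0 in monocyte-like cells, with a median log2 change of -0.49, and 17 of 24 in macrophage-like cells, with a median of -0.38. The medians were -0.29 in neutrophil-like, -0.15 in fibroblast-like, -0.11 in erythroid-like and -0.08 in B cell-like cells, and -0.08 in blood-like cells pooled, against -0.02 to 0.02 over all genes tested. The 1 gene called higher was Elovl6 in B cell-like cells, at 60.7, 100.1, 54.2 and 108 CPM, with a log2 change of 0.84 ± 0.186 (SE; edgeR adjusted p = 0.0236). Both mutant libraries were above both controls, and the reverse held in chondrocyte-like cells. DESeq2 was not run in these classes. The genotype effect was tested against that of blood-like cells, as a term of class by genotype with library as a block. It was more negative in chondrocyte-like cells for 3 of the 28 genes (1.36% of all genes): Pmvk, with a difference of -0.95 ± 0.235 (SE; edgeR adjusted p = 0.0272), Scd1 with -1.17 ± 0.242 (SE; edgeR adjusted p = 0.00858) and Elovl6 with -1.23 ± 0.258 (SE; edgeR adjusted p = 0.00955). None was more positive (2.1% of all genes), also at an unadjusted p under 0.05. The blood-like pool was a different mix of classes in each library. B cell-like cells gave it 1251545, 3725396, 13436034 and 6905942 UMIs, and erythroid-like cells 1102298, 1145586, 11353867 and 4810714. Elovl6 stood at 54.2 to 108 CPM in B cell-like and 4.05 to 5.24 CPM in erythroid-like cells. The part of that mix in these differences was not tested. For the other 25 genes, Dhcr7 and Msmo1 among them, a difference between the cell classes was not detected, so their fall is not shown to be particular to cartilage cells.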

How the data were processed

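Single-cell RNA was measured in 4 libraries (Chromium version 3 chemistry, per the labels). The deposited values are UMI counts per gene and barcode, made by the authors with Cell Ranger (3.1.0 per the file headers). Build mm10 and Seurat 3 are named in the submitters' processing notes. The series' design text speaks of older mice and of a Sox8 mutant, which no label of these 4 libraries names, so groups follow the sample labels. Kept barcodes had 500 genes or above and a mitochondrial share of UMIs of no more than 15%. Scrublet's automatic threshold marked 0 and 1 barcodes in 2 libraries, so barcodes scoring over 0.2 were removed (1.64% to 3.15% of each library), a value chosen after seeing the data. Cells were clustered with scanpy 1.11.5 (2000 variable genes, 30 components, 15 neighbours, Leiden resolution 1). The variable genes left out the 28 genes and the lists of neighbouring pathways, except the cell cycle list. Clusters were named from marker genes among their 25 leading genes. Rules added after seeing the clusters named a cluster chondrocyte-like where 10 or more chondrocyte markers stood 3-fold over the blood clusters, at most 2 markers of any other type were among the 25 leading genes and none outnumbered the chondrocyte markers among the first 10. A blood cluster with 10 or another named cluster with 20 such chondrocyte markers counted as mixed and stayed unnamed.

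UMIs were summed per class and library and tested with edgeR 4.0.16 in R 4.3.3 (quasi-likelihood test, TMM, filterByExpr, genotype and age as additive terms, Benjamini-Hochberg over all genes tested, threshold 0.05). DESeq2 1.42.0, other scalings and filters, other cell sets and single clusters were alternatives. Only the genotype term of the main edgeR fit in chondrocyte-like cells was tried on simulated data. Labels do not say whether libraries are separate mice. The 28 genes and all lists were chosen with earlier results of these data known. All 28 genes are named with values, and of each other list up to 3 past the threshold by size of change.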

Additional observations from a re-analysis of the deposited data

Results flagged for a closer look

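For 6 genes the mutant stood above the control at one age and below it at the other in chondrocyte-like cells, in plain CPM. The log2 ratios at days 13 and 19 were -0.22 and 0.11 for Hmgcs1, -0.11 and 0.28 for Sqle, -0.11 and 0.27 for Hsd17b7, 0.20 and -0.15 for Ebp, -0.38 and 0.50 for Fasn and -0.31 and 0.25 for Scd2. With 1 library per group the difference between the ages was not tested.

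The genotype effect differed between chondrocyte-like and blood-like cells by edgeR's test of the difference for Pmvk (log2 -0.95), Scd1 (-1.17) and Elovl6 (-1.23), each more negative in chondrocyte-like cells. The blood-like pool was a different mix of classes in each library, and the part of that mix was not tested.

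The genotype effect differed between the cycling cluster and clusters 0, 1 and 3 pooled, by a test added after the data were seen, for 12 genes. The differences were -1.11 for Pmvk, -1.21 for Mvd, -1.39 for Lss, -0.45 for Cyp51, -0.95 for Nsdhl, -0.62 for Ebp, -0.88 for Dhcr7, -0.87 for Srebf1, -0.64 for Acaca, -0.60 for Acly, -2.15 for Scd1 and -0.83 for Scd2, all more negative in the cycling cluster.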

How the results depend on the processing

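Of the 28 genes, 16 fell in the mutants in the fit reported. With DESeq2 14 fell and at Leiden resolution 0.5 15 did, and 16 or 17 fell with RLE or upper-quartile scaling, with a minimum of 1000 genes, with doublets kept, over all skeletal-lineage cells, and with cluster 5 added, an alternative chosen after seeing the data. Of all genes 6.99% were called lower with DESeq2, 1838 of 15301 genes at resolution 0.5 and 10.3% to 13.0% in the other 6, and 11.4% in the fit reported. Fewer fell without TMM (9; 5.94% of all genes), with no filter on low counts (10; 4.89%), with genotype alone in the model (7; 7.46%) and without the cycling cluster (10; 1593 of 14502 genes), and within clusters 0, 1, 3 and 13, also added after seeing the data, 0, 0, 3 and 6 fell. In cluster 21 19 of 27 fell (8.42% of all genes lower). It held 591 cells at a median of 18972 UMIs, against 782 to 2240 cells at medians of 7384 to 13986 UMIs in those clusters. The part of cell number and depth in how many genes fell was not tested, nor was any other cause of the smaller numbers. Pmvk, Lss, Nsdhl, Sc5d, Dhcr7 and Scd1 passed in each of the 12 alternatives that were not single clusters, and 0 genes rose in any of them. The median log2 change, -0.53, was -0.32 without TMM and -0.53, -0.55 and -0.49 in the other 3 of these fits, where 26 of 28 estimates stayed below 0.

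Some estimates that did not pass changed sign. Without TMM the genotype estimate was 0.098 for Mvk, 0.084 for Sqle, 0.081 for Hsd17b7, 0.027 for Ebp and 0.056 for Fasn. Srebf2 was at -0.078 over skeletal-lineage cells, -0.030 at resolution 0.5 and -0.034 with cluster 5 added. The age estimate was 0.021 for Pmvk, 0.018 for Acly and 0.038 for Elovl6 without TMM, 0.014 for Acly and 0.0034 for Elovl6 with doublets kept, -0.061 for Mvk and -0.050 for Dhcr7 over skeletal-lineage cells, -0.042 for Mvk and -0.088 for Dhcr7 at resolution 0.5, -0.012 for Dhcr7 without the cycling cluster and -0.0079 for Dhcr7 with age alone.

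The median single-age ratio at day 13, -0.43 in plain CPM, was -0.71 with TMM scaling, -0.046, -0.14, -0.11, -0.025, 0.33 and -0.062 within clusters 0, 1, 3, 4, 6 and 13 and -0.79 within cluster 21. At day 19, -0.15 in plain CPM, it was -0.29 with TMM scaling, 0.010, -0.061, -0.089 and -0.19 within clusters 0, 1, 3 and 13 and -0.33 within cluster 21. No paired analysis was possible because the labels give no replicate numbers and each group has 1 library. Leaving out a library would leave no residual degree of freedom. Depth limits the low genes most, such as Tm7sf2.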

Other observations

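The levels of the sterol enzymes moved together across cells to an uneven degree. Each gene's log2(CPM + 1) was set against the mean of the other sterol enzymes over 39 profiles of a cell class in a library, which share libraries and depth. Pearson's r was 0.93 for Cyp51, 0.89 for Idi1 and 0.61 for Mvd. Over 30 profiles of single clusters with chondrocyte markers the order changed, with r of 0.92 for Mvd, 0.68 for Cyp51 and 0.55 for Idi1. Scap, the escort of the SREBP factors, had an r of 0.43 over classes and -0.60 over the clusters. These are descriptions of points that are not independent.

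Cluster 5, with Myoc and Pi15 among its leading genes and 809 and 824 cells in the mutants, had sterol enzyme sums of 1293 and 1242 CPM, near the 1276 and 1308 CPM of cluster 6, which holds most mutant chondrocyte-like cells. Its fatty acid enzymes summed to 412 and 438 CPM, against 504 and 584 CPM in cluster 6. In the unnamed cluster 13, with Mepe and Ibsp among its leading genes, the sterol enzymes summed to 1981, 1865, 1856 and 1536 CPM.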
